A study of Mus musculus with 8 samples.

Results

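The 9 genes described here encode transcription factors, and 1 coactivator, that act in early B-lineage cells. They are the interferon regulatory factors Irf4 and Irf8, the MEF2 factors Mef2c and Mef2d, the Oct factors Pou2f1 and Pou2f2 with their coactivator Pou2af1, and the HMG-box factors Lef1 and Sox4. A peak was counted for a gene when its summit lay inside the body of that gene in the GRCm38 annotation, or outside every protein-coding gene with that gene's bound as the nearest one within 100 kb. By this rule 20 peaks belonged to the 9 genes. After dTAG-13 the Brg1 list held 19 of them, of 5206 peaks, and the EBF1 list held 0, of 5 peaks. In DMSO the Brg1 list held 0, of 234 peaks, and the EBF1 list held 1, of 312 peaks.

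The peaks come from chromatin immunoprecipitation with sequencing (ChIP-seq) in A-MuLV-transformed pro-B cells, which are mouse early B-lineage cells made permanent by a virus. In the cells of all groups the endogenous EBF1 had been replaced by an exogenous, modified EBF1 that carries the dTAG, a degron through which the small molecule dTAG-13 sends a protein to degradation. The groups were EBF1 ChIP in the EBF1-dTAG_C line with 0.5 µM dTAG-13 for 6 h, EBF1 ChIP in the EBF1-dTAG_C line with DMSO, Brg1 ChIP in the EBF1-dTAG_N line with 0.5 µM dTAG-13 for 6 h, and Brg1 ChIP in the EBF1-dTAG_N line with DMSO. The DMSO samples are labelled as 6 h of DMSO by treatment and as 0 h by title. Whether either line is a single clone is not given in the sources used here. Each group was 1 library without a replicate, so conditions are set side by side and not tested. A lower summit can mean fewer cells bound or less binding per cell, which cannot be told apart in bulk cells.

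EBF1 is a transcription factor that, with E2A and Pax5, sets up the B-cell programme, and Brg1 (Smarca4) is an ATPase that moves nucleosomes as part of BAF complexes. IRF factors bind GAAA repeats, often beside the ETS factors Spi1 and Spib, and Irf4 and Irf8 together let mouse pre-B cells leave the cycle and rearrange light chains. MEF2 factors are MADS-box proteins that signalling through MAP kinases turns on and class IIa histone deacetylases hold off. Oct factors read the octamer of immunoglobulin promoters, where Pou2af1 (also called OCA-B or Bob.1) joins them. Lef1 is a nuclear partner of beta-catenin, and both it and Sox4 are needed for normal mouse pro-B cells.

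The 3 stretches of sequence given here show where Brg1 lay relative to start sites, because these are the genes whose Brg1 peaks came nearest to a start. Each is the 250 bases before an annotated start site on the strand of the gene, 5′ to 3′, from RefSeq on GRCm38.p6. Capitals mark bases inside a Brg1 peak of the dTAG-13 list. The Pou2f1 stretch belongs to an internal start site and lies at chr1:165934949-165935198 on the minus strand. The Pou2af1 stretch lies at chr9:51213440-51213689 and the Mef2d stretch at chr3:88142122-88142371, both on the plus strand.
Pou2f1: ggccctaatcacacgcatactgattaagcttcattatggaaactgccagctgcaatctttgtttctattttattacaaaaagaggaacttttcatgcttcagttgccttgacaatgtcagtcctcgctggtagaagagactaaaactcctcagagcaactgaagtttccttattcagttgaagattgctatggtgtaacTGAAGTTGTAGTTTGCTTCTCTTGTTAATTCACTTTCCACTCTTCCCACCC
Pou2af1: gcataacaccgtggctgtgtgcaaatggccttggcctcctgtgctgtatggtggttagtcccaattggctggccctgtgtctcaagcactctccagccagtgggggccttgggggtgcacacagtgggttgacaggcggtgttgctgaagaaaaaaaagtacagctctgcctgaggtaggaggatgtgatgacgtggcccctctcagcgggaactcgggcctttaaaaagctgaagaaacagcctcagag
Mef2d: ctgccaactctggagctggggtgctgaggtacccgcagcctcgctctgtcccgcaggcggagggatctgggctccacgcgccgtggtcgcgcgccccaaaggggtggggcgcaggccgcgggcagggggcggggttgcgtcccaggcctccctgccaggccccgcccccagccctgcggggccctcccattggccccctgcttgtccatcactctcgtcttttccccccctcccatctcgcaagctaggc
In Pou2f1 the last 51 of the 250 bases were inside a peak, and its summit lay 3 bp past the start. In Pou2af1 and Mef2d no base was inside a peak. The Pou2af1 stretch sat between 2 peaks, with summits 406 bp before and 148 bp after the start, and the nearest Mef2d summit was 672 bp before the start. Across all coding start sites, 430 of 21263 windows from 250 bases before to 50 after the start (2.02%) overlapped a Brg1 peak of the dTAG-13 list, and among the 9 genes Pou2f1 was the 1 gene with such a window.

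After dTAG-13, 7 of the 9 genes had a Brg1 peak (77.8%, exact Clopper-Pearson 95% interval 40.0 to 97.2%), and Lef1 and Sox4 had none. Over all 21887 protein-coding genes the share was 12.2%. In DMSO 0 of the 9 genes had a Brg1 peak, where the share over all genes was 0.818%. The 0 of 9 genes in DMSO is therefore near what the length of that list gives for any gene. Mef2c, Mef2d and Pou2af1 had 4 Brg1 peaks each after dTAG-13, a number reached by 1.26% of all genes. Pou2f1 had 3, Irf4 had 2, and Irf8 and Pou2f2 had 1 each. At least 3 peaks were thus found at 4 of the 9 genes, against 2.26% of all genes. The bodies of Mef2c, Pou2f1, Lef1 and Pou2f2 are long (163063, 137600, 114061 and 93448 bp), and the part of body length in these counts was not tested. Of the genes with 4 peaks, Mef2c has a body of 163063 bp, Mef2d of 30151 bp and Pou2af1 of 26390 bp, and Lef1 had no peak in 114061 bp. The shares over all genes were not matched for body length. The 9 genes were chosen with earlier results of these data known, so the interval is no test of them against all genes.

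EBF1 had a peak at 0 of the 9 genes after dTAG-13 and at 1 of them, Mef2d, in DMSO (11.1%, 0.281 to 48.3%). Over all genes the shares were 0.0228% after dTAG-13 and 1.28% in DMSO.

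**Figure D1:**
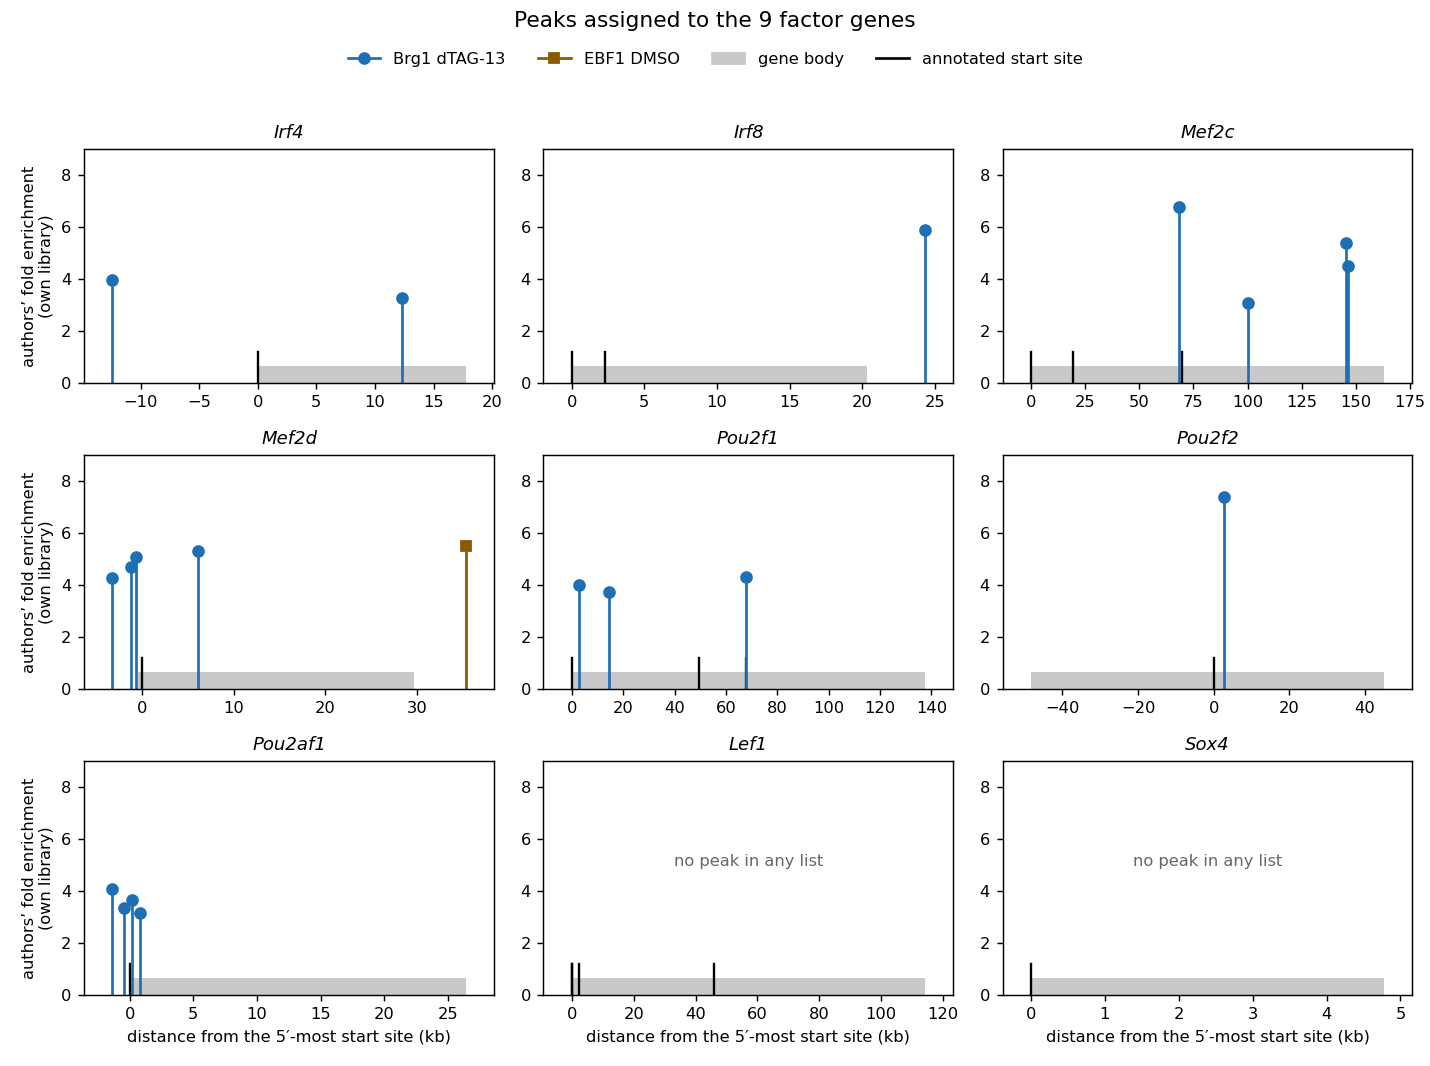
Position and height of every peak assigned to the 9 genes, with distance from the 5′-most annotated start site in kb along the direction of transcription on the x axis and the authors' fold enrichment in the peak's own library on the y axis. Blue circles are Brg1 peaks after dTAG-13, the brown square is the EBF1 peak in DMSO, grey bars are gene bodies and black ticks are annotated start sites. The 4 Pou2af1 peaks stand within 2.18 kb around the start, the 4 Mef2c peaks are spread over 78.1 kb, and Lef1 and Sox4 have none.

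At Irf4 (chromosome 13, 30749233 to 30766981) Brg1 had 2 peaks after dTAG-13 and none in DMSO. The upstream peak, chr13:30736734-30737009, had its summit 12424 bp before the start, with 13 fragments at the summit and a fold enrichment of 3.97. The authors' fold enrichment is the number of fragments at the summit plus 1 over the local background plus 1 in the same library, so it can be ranked within a list but not compared in size between lists. The second peak, chr13:30761098-30761600, lay inside the gene 12351 bp past the start, with 16 fragments and a fold of 3.28. Both stood low in their list, at percentiles 28.8 and 7.42 of fold enrichment, where 50 is the middle of the list. A further Brg1 peak 27.9 kb from Irf4 was assigned to the neighbouring Dusp22.

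Irf8 (chromosome 8, 120736358 to 120756694), the partner of Irf4 in pre-B cells, had 1 Brg1 peak after dTAG-13, at chr8:120760565-120760818. It lay 3.96 kb beyond the 3′ end of the gene and 24.3 kb from its first start site, with 19 fragments and a fold of 5.88, at percentile 88.5 of its list. Neither of its 2 annotated start sites had a Brg1 peak within 20 kb. The nearest EBF1 peak in DMSO was 165 kb away and assigned to Gse1. In DMSO the nearest Brg1 peak was 3.25 Mb from Irf8 and 1.02 Mb from Irf4.

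Mef2c (chromosome 13, 83504017 to 83667079), a MEF2 factor that acts in early and mature B cells, held all 4 of its Brg1 peaks inside the body. The first, chr13:83571961-83573038, was 1078 bp wide, the widest of the 19, and had the most fragments at its summit, 34, with a fold of 6.75. Its summit lay 1410 bp before the last of the 3 annotated start sites of Mef2c and 68.2 kb past the first. The second, chr13:83604076-83604303, was among the lowest of the list, with 15 fragments, a fold of 3.09 and a percentile of 4.24. The remaining peaks, chr13:83649406-83649855 and chr13:83650132-83650545, stood as a pair 276 bp apart near the 3′ end of the gene, with 21 and 26 fragments and folds of 5.38 and 4.48. The noncoding genes Gm52043 and Gm52044 overlap the body there, so the other 3 peaks lay in both Mef2c and a noncoding gene. Exons and introns were not told apart, since the annotation used gives gene bounds only.

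Mef2d (chromosome 3, 88141941 to 88172091), the other MEF2 factor, had Brg1 peaks at its 5′ end, and it was the 1 gene of the 9 with an EBF1 peak. Going towards its start, the Brg1 peaks chr3:88139003-88139219, chr3:88140725-88141142 and chr3:88141296-88141834 had summits 3275, 1301 and 672 bp before the annotated start site. Their fragments numbered 15, 16 and 17 and their folds were 4.27, 4.69 and 5.06. The peak inside the gene, chr3:88148317-88148586, lay 6100 bp past the start and was the highest of the 4, with 22 fragments and a fold of 5.29. These peaks differ by few fragments, and their order was not tested.

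The EBF1 peak at Mef2d in DMSO, chr3:88177623-88177777, lay 5.61 kb beyond the 3′ end of the gene, inside the noncoding gene 1700113A16Rik and 35.3 kb past the start. It had 18 fragments at the summit, a fold of 5.51 and a −log10 q of 4.49, and it ranked 236 of 312 by fold enrichment. The EBF1 list in DMSO had 10.9% of its summits within 1 kb of a coding start site, and this peak was not among them. After dTAG-13 the nearest EBF1 peak on that chromosome was 28.3 Mb away. No Brg1 peak overlapped the EBF1 peak. The nearest Brg1 summit was 29.2 kb away after dTAG-13 and 12.3 Mb away in DMSO. Of all 312 EBF1 peaks in DMSO, 17.9% overlapped a Brg1 peak of the dTAG-13 list.

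Pou2f1 (chromosome 1, 165865150 to 166002749, minus strand), which encodes the widely expressed Oct-1, had 3 Brg1 peaks after dTAG-13, all inside the body. The highest by fragments, chr1:165934755-165934999, is the peak shown in capitals above at the internal start site, with 25 fragments and a fold of 4.32. The other peaks, chr1:165999675-165999920 and chr1:165988255-165988565, lay 2.79 and 14.3 kb past the outermost start site, with 14 and 11 fragments and folds of 4.00 and 3.73. The outermost start site itself had no peak within 1 kb. The nearest Brg1 peak in DMSO was 529 kb from the gene and the nearest EBF1 peak in DMSO 147 kb, assigned to Rcsd1.

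Pou2f2 (chromosome 7, 25087350 to 25180797, minus strand) encodes the B-cell-enriched Oct-2 and had the highest fold enrichment of all 19 peaks. Its single Brg1 peak, chr7:25129229-25130131, was 903 bp wide, with 28 fragments and a fold of 7.4, at percentile 97.2 of the list. The summit lay 2809 bp past the 1 annotated start site. That start is itself inside the gene, whose body reaches 48.3 kb further upstream, and the summit was 42301 bp from the nearest gene bound. The nearest Brg1 peak of another gene was 190 kb away at Cd79a, which encodes the Ig-alpha chain of the B-cell receptor, in both conditions, with folds of 5.08 after dTAG-13 and 6.55 in DMSO in their own libraries.

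Pou2af1 (chromosome 9, 51213690 to 51240079) had the most compact group, with 4 Brg1 peaks whose summits spanned 2180 bp. They were chr9:51212278-51212654, chr9:51213146-51213404, chr9:51213818-51214151 and chr9:51214405-51214642, with summits 1349 and 406 bp before and 148 and 831 bp after the start. Fragments at the summits were 14, 22, 13 and 18, and the folds were 4.06, 3.35, 3.64 and 3.15. The peaks 406 bp before and 831 bp after the start had more fragments than the other two but lower folds, since their local backgrounds were 5.86 and 5.02 fragments per base, beside 2.69 and 2.85 at the others. By fold all 4 stood in the lower part of the list, between percentiles 5.19 and 32.7. By fragments the peak 406 bp before the start stood at percentile 81.1.

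Lef1 (chromosome 3, 131110297 to 131224357) and Sox4 (chromosome 13, 28948919 to 28953699) had no peak in any of the 4 lists. The nearest Brg1 peak to Lef1 was 1.64 Mb away after dTAG-13, at Elovl6, and 5.08 Mb away in DMSO, at Bank1. To Sox4 it was 773 kb away in both conditions, at Cdkal1, where the fold was 8.1 after dTAG-13 and 6.82 in DMSO, each in its own library. EBF1 in DMSO came no nearer than 5.08 Mb to Lef1 and 25.4 Mb to Sox4. Since 12.2% of all genes had a Brg1 peak after dTAG-13, absence of one is the common state of a gene in that list, and a weak peak may not have been detectable at this depth.

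By place, 12 of the 19 Brg1 summits lay inside the gene (63.2%, 38.4 to 83.7%), 6 upstream and 1 downstream. Inside a protein-coding gene lay 52.1% of all summits of the list. Within 1 kb of an annotated start site of the gene lay 5 of the 19 (26.3%, 9.15 to 51.2%), at Pou2f1, Mef2d and Pou2af1. Of all summits of the list, 17.2% lay within 1 kb of a start site of any coding gene, which is a wider measure. Both intervals take the 19 peaks as independent, although several near-start summits belong to the compact group at Pou2af1. They are thus no test of these shares against the list. The summit nearest to an annotated start of its gene was at Pou2f1, and the farthest was at Mef2c, 76672 bp past a start. The farthest peak outside a gene that was counted lay 12.4 kb from Irf4 (3.97-fold, 13 fragments), followed by the EBF1 peak 5.61 kb from Mef2d (5.51-fold, 18 fragments). The nearest ones beyond the limit were Brg1 peaks 320 and 391 kb from Mef2c (4.27-fold with 14 fragments and 3.66-fold with 18 fragments).

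In height the 19 peaks lay on both sides of the middle of their list. Their median fold was 4.27, against 4.45 over the list, and 8 of the 19 stood above the list's median. Their median of 17 fragments, with a range of 11 to 34, stood beside 18 over the list, and their median width of 311 bp beside 323 bp. The Pou2f2 peak, the first Mef2c peak and the Irf8 peak led by fold, with ranks 146, 278 and 595 of 5206. Ranks depended on the measure, since the Pou2f1 peak at the internal start stood at percentile 44.5 by fold and 90.1 by fragments, where the local background was 5.02 fragments per base. At the Mef2d peak 672 bp before the start the order was the other way, with percentiles of 72.7 by fold and 44.3 by fragments.

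**Figure D2:**
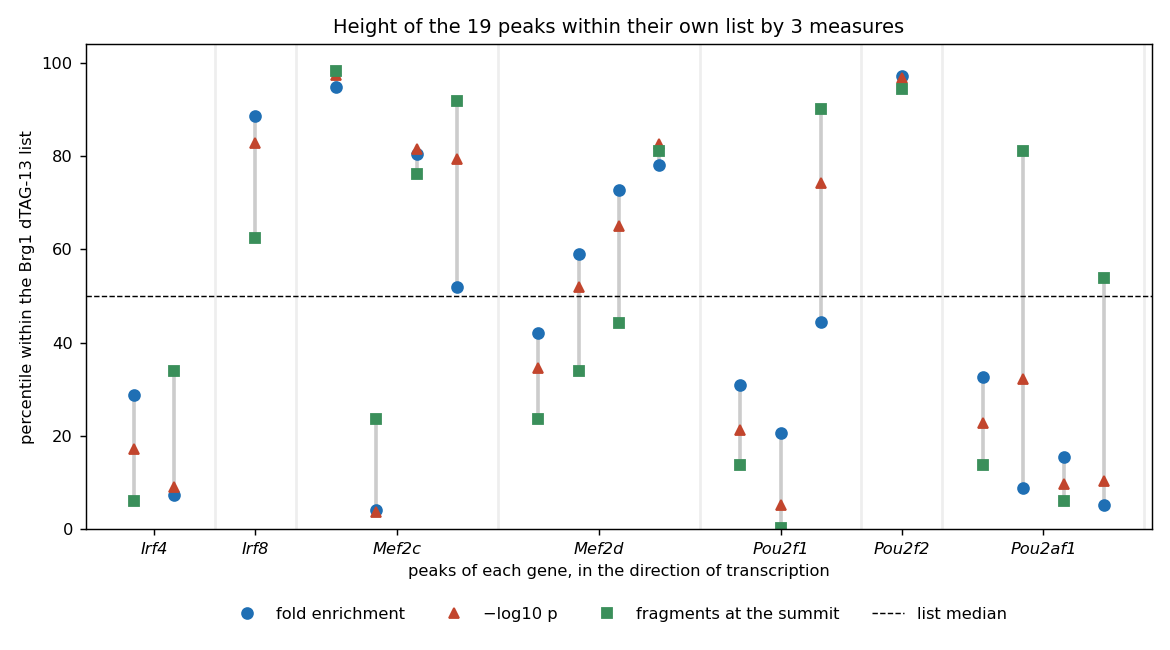
Percentile of each of the 19 Brg1 peaks within the dTAG-13 list by fold enrichment (blue circles), −log10 p (red triangles) and fragments at the summit (green squares), with the list's median as a dashed line and the peaks of each gene in the direction of transcription. The Pou2f2 peak and the first Mef2c peak are high by every measure, whereas the Pou2af1 peak 406 bp before the start ranges from 8.88 by fold to 81.1 by fragments.

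None of the 19 Brg1 peaks was in the DMSO list, and this has to be read against the backgrounds of the libraries. The lowest local background, taken as that of the genome, was 2.15 fragments per base after dTAG-13 and 0.607 in DMSO, a ratio of 3.54. Of all 5206 peaks after dTAG-13, 2.42% overlapped a Brg1 peak in DMSO, so 0 of 19, which allows a share of up to 15.8% (3 counts of 19, not an exact interval), is near the background. When fragments and local background were divided by 3.54 and fragments rounded, the 19 peaks kept 3 to 10 fragments, where the DMSO list at these backgrounds required 7 to 11. The required number is set by the weakest Brg1 peak in DMSO, with a −log10 p of 5.89. Only the first Mef2c peak (10 fragments, −log10 p of 7.27) and the Pou2f2 peak (8 fragments, 6.63) still passed, 2 of 19 (10.5%, 1.3 to 33.1%), beside 5.7% of all peaks of the list. By genes this is 2 of 9, beside 1.15% of all genes. For the other 17 peaks the scaled fragments were below the number required in the DMSO library. Among them were all those of Irf4, Irf8, Mef2d, Pou2f1 and Pou2af1. Sampling spread around the scaled numbers was not modelled, so Brg1 at the same relative height could still have been detected at some of them. The Mef2c peak passed with 1 fragment more than the 9 required, and the Pou2f2 peak with exactly the 8 required. A gain of Brg1 at these genes and the higher background of the dTAG-13 library cannot be told apart.

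**Figure D3:**
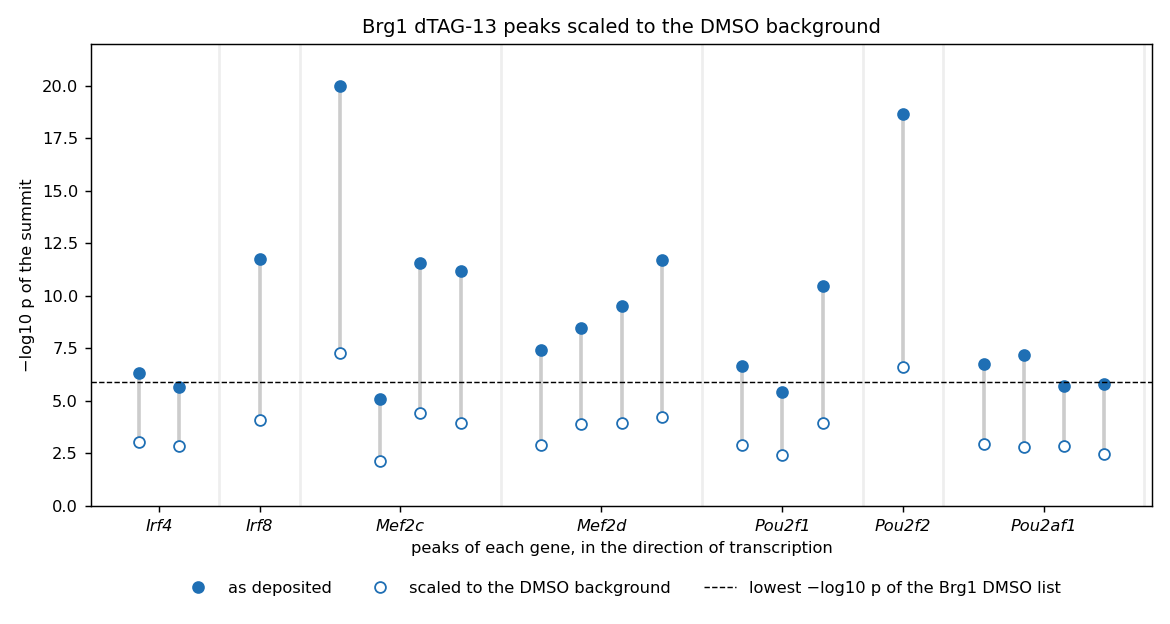
The −log10 p of the 19 Brg1 summits as deposited (filled circles) and after division of fragments and local background by 3.54 (open circles), with that of the weakest Brg1 peak in DMSO, 5.89, as a dashed line. The open circles of the first Mef2c peak and of the Pou2f2 peak are above the line and the other 17 below it.

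No Brg1 peak of the 9 genes overlapped an EBF1 peak, and over the whole dTAG-13 list 1.09% of Brg1 peaks did. Apart from Mef2d, the gene nearest to an EBF1 peak in DMSO was Pou2f1 at 147 kb, followed by Irf8 at 165 kb and Pou2f2 at 525 kb. For Pou2af1, Lef1, Mef2c, Irf4 and Sox4 it was 3.41 Mb or more. The lines used for EBF1 and for Brg1 differ, so how much EBF1 was lost in the cells used for Brg1 was not measured here.

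Of 15 paralogues of these factors, 6 had a Brg1 peak after dTAG-13 (Irf1, Irf2, Irf5, Mef2a, Mef2b and Tcf7l2) and 1 in DMSO, Tcf7l2, a relative of Lef1. Over all protein-coding genes the shares were 12.2% after dTAG-13 and 0.818% in DMSO. At Tcf7l2 the peaks chr19:55866329-55866533 after dTAG-13 and chr19:55866382-55866565 in DMSO overlapped. The highest folds after dTAG-13 were 5.7 at Irf2, which had 6 peaks, 5.14 at Tcf7l2, 4.48 at Mef2b and 4.29 at Irf1. Those without a peak included Irf3, Irf7, Pou2f3, Tcf7, Tcf7l1, Sox11 and Sox12. Of the HMG-box members among the 9 genes and their paralogues, which are Lef1, Sox4, Tcf7, Tcf7l1, Tcf7l2, Sox11 and Sox12, Tcf7l2 was the only one with a peak. This is near the share over all protein-coding genes, 12.2% for Brg1 after dTAG-13, so no trait of the family is read from it.

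Of 18 cofactors, none had a Brg1 peak in DMSO, where the share over all protein-coding genes was 0.818%. After dTAG-13, 8 of the 18 had a Brg1 peak (44.4%), beside 12.2% of all genes, a difference that was not tested. They were led by Tle4, a corepressor that Lef1 family factors recruit, with a fold of 6.76, then the acetyltransferase Ep300 with 6.53, and Hdac9 and Hdac7, which hold back MEF2 factors, with 5.88 and 5.34. The others were Spi1, Tcf3, Mapk14 and Tle3.

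Of 20 genes known or used as targets of these factors, 13 had a Brg1 peak after dTAG-13 (65%). In DMSO Brg1 had a peak at 1, Igll1 (surrogate light chain), and EBF1 at 2, Igll1 and Cd79b. Over all protein-coding genes the shares were 12.2% for Brg1 after dTAG-13, 0.818% for Brg1 in DMSO and 1.28% for EBF1 in DMSO. The peak lists differ in length, and the differences were not tested. Among the targets the folds after dTAG-13 were 6.44 at Vpreb1, 6.38 at Bcl6 and 6.14 at Crisp3, a gene controlled by Oct-2. Rag1, Rag2 and Ikzf3 had no Brg1 peak, whereas Ikzf1 had 8 after dTAG-13.

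Genes of other lineage factors were counted in the same way. Over all protein-coding genes the Brg1 shares were 12.2% after dTAG-13 and 0.818% in DMSO, and the EBF1 share in DMSO was 1.28%. Brg1 after dTAG-13 had a peak at 8 of 12 ETS and Runx genes (66.7%, 34.9 to 90.1%), led by Ets1 with a fold of 7.06, and at 4 of 6 repressor genes (66.7%, 22.3 to 95.7%), Ikzf1, Bcl6, Bach2 and Bcl11a. Among the ETS genes Fli1 held 13 peaks. In DMSO Brg1 had a peak at 1 gene of the ETS and Runx list, Erg, which also held the single EBF1 peak of that list, and at 0 of the repressor genes. At Erg the Brg1 folds were 5.26 after dTAG-13 (chr16:95427708-95427948) and 8.13 in DMSO (chr16:95428354-95428550), each in its own library. The EBF1 fold in DMSO was 7.83 (chr16:95429985-95430187). None of these Erg peaks overlapped another. Several genes, among them Spi1, Ikzf1, Bcl6, Igll1, Vpreb1 and Cd79b, stand in more than 1 of the lists used here. The intervals of all these lists overlap that of the 9 genes, and the differences between lists were not tested.

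**Figure D4:**
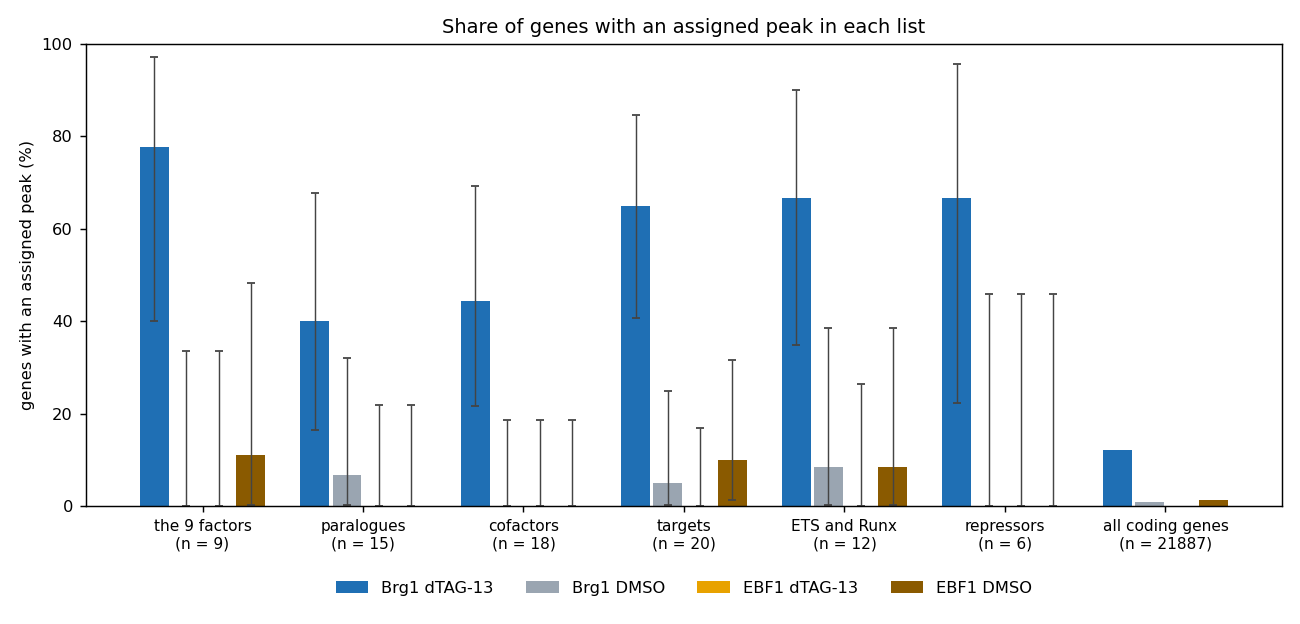
Share of genes with an assigned peak, in percent, for the 9 genes, for 5 lists of related genes and for all protein-coding genes, in the 4 peak lists. Bars show the share and lines its exact Clopper-Pearson 95% interval, which covers counting error only, and no interval is drawn for all genes. The genes and lists were chosen with earlier results of these data known. After dTAG-13 Brg1 stands at 77.8% of the 9 genes and 12.2% of all genes, and in DMSO at 0 of the 9.

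A search of the 250 bases before each of the 17 annotated start sites of the 9 genes, on both strands, found no octamer (ATGCAAAT), no pair of EBF1 half-sites (TCCC and GGGA with any 2 bases between), no pair of IRF repeats (GAAA and GAAA with any 2 bases between), no MEF2 core (CTA and TAG with any 4 bases between) and no LEF1 core (CTTTGAT). These motifs are held by 1.6%, 0.779%, 2.98%, 3.2% and 3.21% of all 32851 start windows of the table. The letters GAGGAA, 1 form of the ETS site, were found in 8 of the 17 windows, at Irf4, Lef1, Mef2c, Pou2f1, Pou2f2 and Sox4, and in 23.3% of all windows. Other forms of the ETS site were not searched. None of the matches overlapped another. Windows of 1 gene can share bases, as the first 2 of Lef1 do, and a match is a description of the letters only. The windows varied in composition, with 29 CpG dinucleotides at the outer start of Pou2f1 and at the first of Irf8, 19 at Mef2d, 5 at Pou2af1 and 2 at the internal start of Pou2f1, beside a median of 10 over all coding windows and of 18 over those with a Brg1 peak after dTAG-13.

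The label of pro-B cells was set beside marker genes, although a peak does not measure expression. Brg1 had a peak at 9 of 12 pro-B markers after dTAG-13 and at 6 of 12 in DMSO, at 4 of 11 T-cell markers after dTAG-13 (Cd3d, Lck, Zap70 and Lat) and 0 in DMSO, and at 0 of 10 myeloid markers in both. EBF1 had a peak at 0 of 12 pro-B markers after dTAG-13 and at 6 of 12 in DMSO. Over all protein-coding genes the Brg1 shares were 12.2% after dTAG-13 and 0.818% in DMSO. For EBF1 they were 0.0228% and 1.28%. Counts of 0 among so few markers are thus near these shares, and no lineage is read from them. The 4 of 11 T-cell markers were above the share over all genes, and this was not tested.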

How the data were processed

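EBF1 and Brg1 were each mapped by ChIP-seq in 2 libraries, and the 4 inputs were not analysed here. The submitters' processing notes name MACS2 2.2.7.1, Bowtie2 2.3.5.1, deepTools 3.3.2 and SAMtools 1.10, with GRCm38 and mm10 as builds. How peaks were called, against which control, is not given in the sources used here. In the deposited lists, 1 for each library, the authors give for each peak a fold enrichment (a linear ratio), −log10 values of p and q, the distance of the summit from the peak start, and a score, which in every peak equalled 10 times the −log10 q without its decimals. Coordinates are printed 1-based.

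Summits were assigned to protein-coding genes of GRCm38.p6 as the report states, and start sites came from the RefSeq start windows of the same build. Fragments at the summit and local background were recovered from fold enrichment and p by the formulas of MACS2. The fragment number with the closest −log10 p was taken, and it matched within 0.02 for 100% of peaks in every list. On simulated peaks of known scaling, fragments and background were checked against their true values. For EBF1 the recovery needed a scaling of 0.818 after dTAG-13 and 0.863 in DMSO, and their summit fragments are given unscaled. These scalings were chosen for the closest match, so the match is not a separate check of them. The median summit held 35 fragments for EBF1 after dTAG-13, 26 for EBF1 in DMSO, 18 for Brg1 after dTAG-13 and 13 for Brg1 in DMSO. The total depth of each library is unknown. Shared peaks overlap by 1 bp or more. Intervals and limits cover counting error only and take peaks or genes as independent, which neighbouring peaks of 1 gene may not be.

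With 1 library per group no test between conditions was run. All 9 genes and every peak of theirs are named. Of related lists, genes with an EBF1 peak or a Brg1 peak in DMSO and up to 4 by highest fold after dTAG-13 were to be named, and further names were chosen after their values were seen. Some genes of these lists are counted but not reported by name here. The genes, lists and motifs were chosen with earlier results of these data known. Python 3.11.15, pandas 2.3.3 and SciPy 1.17.1 were used.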

Additional observations from a re-analysis of the deposited data

Results flagged for a closer look

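The number of peaks at the 9 genes moved in opposite directions for the 2 proteins under the same treatment. The difference, dTAG-13 minus DMSO, was 19 for Brg1 (19 peaks after dTAG-13 and 0 in DMSO) and -1 for EBF1 (0 peaks after dTAG-13 and 1, at Mef2d, in DMSO). The whole lists moved in the same directions, with 5206 Brg1 peaks after dTAG-13 and 234 in DMSO, and 5 EBF1 peaks after dTAG-13 and 312 in DMSO. The 9 genes held 0.365% of the Brg1 peaks after dTAG-13 and 0.321% of the EBF1 peaks in DMSO. These shares come from different lists and do not set the 9 genes beside other genes. By genes, 77.8% of the 9 had a Brg1 peak after dTAG-13, beside 12.2% of all protein-coding genes. The 9 were chosen with earlier results of these data known, and this difference was not tested. The directions at the 9 genes were those of the whole lists, so no direction particular to these genes is read from the counts. The difference between conditions was not tested, because each condition has a single library and the proteins were mapped in different lines with different antibodies. The lowest background of the Brg1 library after dTAG-13 was 3.54 times that in DMSO.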

How the results depend on the processing

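With 1 library per group, no replicate could be left out. No paired analysis was possible because the labels give no replicate numbers and no result comes from a test. Of 93 alternatives over 30 counts and medians, 78 stayed within 1.5 times the value reported, or within 1 SD for the median percentile, and 15 did not. Many of the 78 began from a count of 0, which a stricter setting cannot change. The 19 Brg1 peaks of the 9 genes after dTAG-13 became 8 when −log10 q had to reach 5 and 2 when it had to reach 10, 2 in a list shortened to the DMSO length, 2 with fragments scaled to the DMSO background and 12 with summits inside bodies only. The 7 genes with such a peak became 2 at a −log10 q of at least 10, in the shortened list and after scaling. The single EBF1 peak in DMSO and its gene, Mef2d, became 0 at a −log10 q of at least 5 or 10 and with summits inside bodies only. Brg1 summits within 1 kb of a gene bound numbered 5, and 9 within 5 kb. These losses follow from how each setting is built. The overlaps of 0 between conditions and between EBF1 and Brg1 at these genes stayed at 0 under a reciprocal overlap of 50%, summits within 250 bp and peaks widened by 500 bp. A reciprocal overlap of 50% is stricter than 1 bp and could not raise a 0. The nearest Brg1 summit in DMSO to any of the 19 peaks was 232 kb away. The EBF1 peak was 29.2 kb from the nearest Brg1 summit after dTAG-13. At such distances the other settings could not change the 0 either.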

Other observations

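Beyond the limit of 100 kb, Brg1 after dTAG-13 had 9 further peaks outside protein-coding genes whose nearest gene was Mef2c. They lay 320 to 483 kb upstream of it on chromosome 13, between 83020846 and 83184215, with 12 to 24 fragments at the summit and folds of 3.41 to 6.1. Of these, 4 overlapped the noncoding gene Gm33073, and 3 of those 4 stood between 391 and 392 kb from Mef2c. In DMSO that stretch of 163 kb held 0 Brg1 peaks and 0 EBF1 peaks, and none of the 9 passed after scaling to the DMSO background. Windows of the same length that began at a summit of the dTAG-13 list held a median of 2 summits and at most 16, and 162 of 5206 (3.11%) held at least 9. The length was set by the 9 peaks themselves, and the windows overlap one another and include this stretch. The share therefore only describes the list and is no test of the stretch. None of the other 8 genes had a peak beyond the limit with that gene as the nearest. The stretch was noticed after the data had been seen, no gene was linked to it here, and its height was not tested.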
